A study of Homo sapiens with 3 samples.

Results

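The RUNX1, ERG and ETS2 loci on chromosome 21 were examined for binding of HMGA1 in DAMI cells. The members were all peaks of the deposited lists on chromosome 21 whose summit lay from 35500000 to 40700000 (hg19), a stretch of 5.2 Mb. There were 632 such peaks among 385953 in the list called over input DNA (the input list) and 550 among 263033 in the list called over histone H3 (the H3 list). The study made 3 libraries by chromatin immunoprecipitation and sequencing, with 1 library each for HMGA1, histone H3 and input DNA without antibody. All came from DAMI cells with no treatment named in the labels. DAMI is an established human leukaemic line with megakaryocytic features that the labels place under MPN/AML, so the libraries differ in antibody only. Both lists rest on the same HMGA1 library. Their overlap is therefore not replication. Without replicates the differences below carry no test, and each interval covers only the error of counting.

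HMGA1 is an architectural chromatin protein whose AT-hooks bind the minor groove of short AT-rich tracts. RUNX1 encodes the DNA-binding subunit of core-binding factor, which blood stem cells and megakaryocytes need and which is often mutated or rearranged in myeloid leukaemia. ERG and ETS2 encode ETS-family transcription factors. ERG maintains blood stem cells and megakaryocyte progenitors, and ETS2 responds to RAS and MAP kinase signalling. These genes share the part of chromosome 21 that is studied in the leukaemias of Down syndrome. RUNX1 and ERG lie on the minus strand, so their starts are at the upper bound given here, and ETS2 lies on the plus strand.

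The gene bounds used were 36160098 to 37357047 for RUNX1 in its long form (1196.95 kb), 39739183 to 40033704 for ERG (294.5 kb) and 40177231 to 40196878 for ETS2 (19.6 kb). RefSeq on GRCh38.p14 gives RUNX1 261502 bases, so the long form used here reaches far beyond the 5′ end of that annotation, whereas ERG (294523 bases) and ETS2 (19773 bases) are nearly the same length in both. The promoters that RUNX1 uses in blood cells lie towards the 3′ end of the long form and were not placed on hg19. In the RefSeq gene order 16 protein-coding genes lie between RUNX1 and ERG, from SETD4 to KCNJ15 and including SIM2, DYRK1A and KCNJ6, and none lies between ERG and ETS2.

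HMGA1 favours AT-rich DNA, so promoters of the genes are shown first for their base composition, as background only. They are RefSeq sequences of GRCh38.p14, each running 250 bases before to 50 bases after a start, and all 3 genes had an entry. Capitals mark runs of at least 6 bases that are each A or T, which reads the same on both strands. The minus-strand RUNX1 promoter at chr21:34888650-34888949, the minus-strand ERG promoters at chr21:38660618-38660917 (outermost start) and chr21:38584896-38585195 (internal start), and the plus-strand ETS2 promoter at chr21:38804933-38805232 read as follows.
RUNX1: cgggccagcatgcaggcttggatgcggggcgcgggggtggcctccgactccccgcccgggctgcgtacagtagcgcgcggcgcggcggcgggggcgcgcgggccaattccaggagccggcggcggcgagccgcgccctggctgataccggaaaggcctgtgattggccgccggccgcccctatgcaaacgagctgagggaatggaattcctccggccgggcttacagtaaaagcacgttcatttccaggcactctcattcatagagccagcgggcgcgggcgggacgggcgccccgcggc
ERG outermost start: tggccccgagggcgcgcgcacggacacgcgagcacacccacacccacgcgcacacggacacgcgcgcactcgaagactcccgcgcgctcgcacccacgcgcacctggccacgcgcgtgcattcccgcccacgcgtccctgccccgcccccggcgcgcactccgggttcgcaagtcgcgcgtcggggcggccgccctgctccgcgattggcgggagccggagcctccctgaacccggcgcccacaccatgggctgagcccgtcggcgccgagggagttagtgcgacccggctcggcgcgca
ERG internal start: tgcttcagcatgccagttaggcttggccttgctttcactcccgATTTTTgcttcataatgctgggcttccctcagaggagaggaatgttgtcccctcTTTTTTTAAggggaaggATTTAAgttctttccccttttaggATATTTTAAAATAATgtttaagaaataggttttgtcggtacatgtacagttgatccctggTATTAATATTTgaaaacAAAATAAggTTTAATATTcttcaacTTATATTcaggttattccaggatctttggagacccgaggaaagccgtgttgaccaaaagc
ETS2: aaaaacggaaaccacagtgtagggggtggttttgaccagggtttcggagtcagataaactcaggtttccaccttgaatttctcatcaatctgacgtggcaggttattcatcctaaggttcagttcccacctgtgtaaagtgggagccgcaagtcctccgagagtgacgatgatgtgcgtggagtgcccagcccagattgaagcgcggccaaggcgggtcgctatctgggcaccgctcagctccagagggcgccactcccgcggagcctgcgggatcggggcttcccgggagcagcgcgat
The outermost ERG promoter held 23.0% A and T, the RUNX1 promoter 28.0% and the ETS2 promoter shown 42.0%, and none of these had such a run. The internal ERG promoter shown held 61.3% A and T and 8 runs, the longest of 15 bases. The table also holds 2 overlapping internal ERG promoters with 54.3% and 55.7% A and T, each with 2 runs, the longest of 24 bases, and another ETS2 promoter with 32.7% and no run, which are not printed. Over all 35116 promoters of the table the median was 41.3% A and T, and 61.2% held at least 1 run. These coordinates are of another build than the peaks and were not converted, so no promoter sequence was matched to a peak. The RUNX1 entry is a start in the shorter RefSeq form and not the start of the long form.

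Near the starts, HMGA1 peaks were few. At the start of the long form of RUNX1 there was 1 peak within 5 kb in either list. Its summit at 37358275 lay 1228 bp upstream, with 37 HMGA1 reads and a fold of 6.24 over input (5.09 input reads) and 5.89 over H3 (4.11 H3 reads). The next summit, 14.8 kb into the gene at 37342250, was the highest of RUNX1 over input, with 89 reads and a fold of 14.5 over input and 11.8 over H3. Reads here are the HMGA1 pileup at the summit and control reads the local control level, both recovered from the authors' fold and p-value, and the folds are the authors' own. Input and H3 reads are on unlike scales, with genome-wide floors of 2.78 and 2.19 reads. Over H3 the fold rests on the HMGA1 pileup multiplied by 0.787.

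The start of ERG had no HMGA1 summit within 5 kb or 10 kb in either list. The nearest input-list summits were 17.1 kb downstream, at 40016636, and 27.1 kb upstream, at 40060845. Both were low, with 20 reads each and folds of 3.66 and 3.61. The summit-free stretch around this start was 44.2 kb over input, the 9th longest of the 631 distances between neighbouring summits of the locus, and 46.1 kb over H3, the 11th longest of 549.

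The start of ETS2 lay in a longer stretch without summits. It ran 65.8 kb from 40129521 to 40195364 in the input list, the 3rd longest of the locus, and 67.4 kb from 40130266 to 40197648 in the H3 list, the 5th longest. The only peaks within the gene were 2 low ones of the input list near its 3′ end, 18.1 and 18.7 kb from the start. The first had its summit at 40195364 with 19 reads and a fold of 3.27, and the second at 40195895 with 14 reads and a fold of 2.37. Neither had a counterpart over H3, and 86.7% and 99.0% of all input-list peaks had a higher fold. For scale, 64.7% of the bases of the locus lay within 5 kb of an input-list summit and 84.5% within 10 kb, and 59.0% and 79.4% for the H3 list. The median distance between neighbouring summits was 4.51 kb over input and 4.93 kb over H3. With 3 starts, of which 1 had a peak, nothing particular to starts follows from these values.

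**Figure D1:**
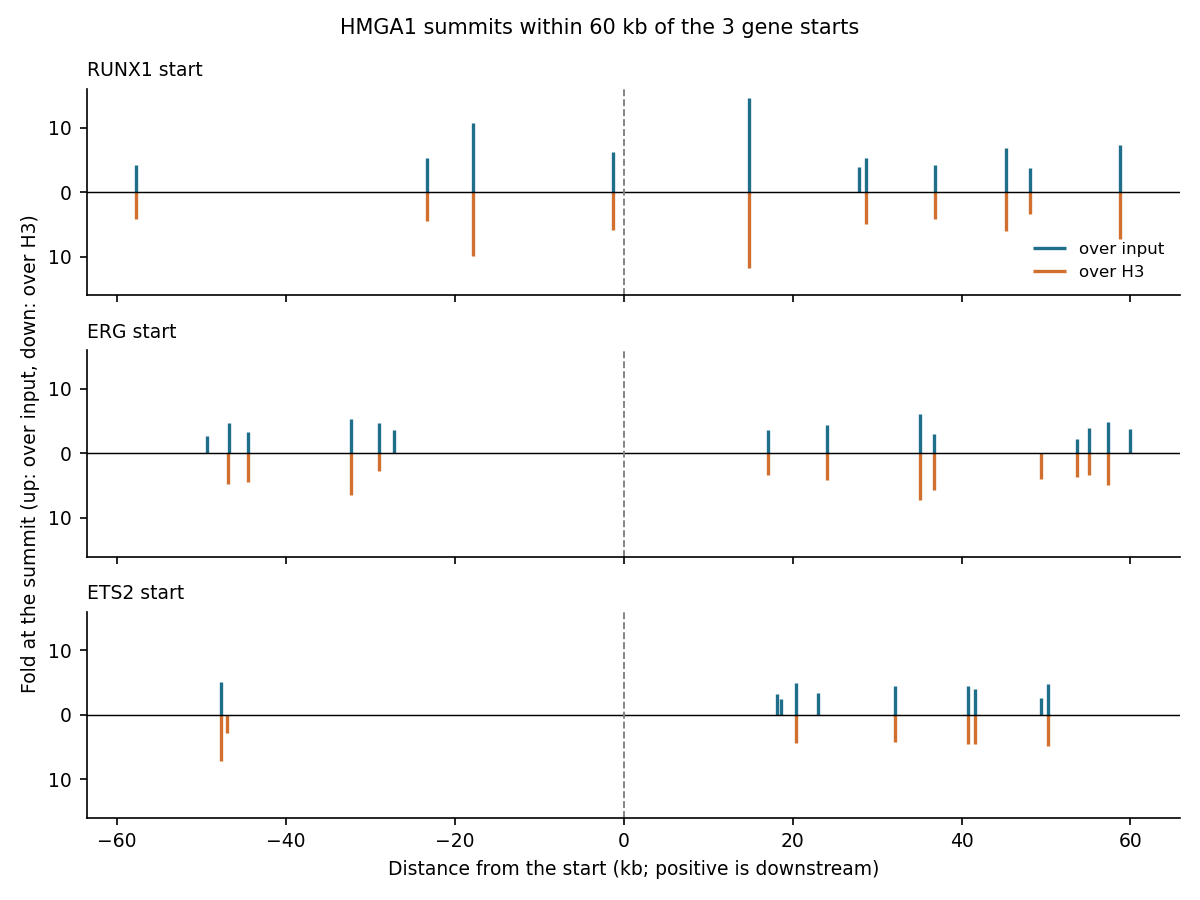
HMGA1 summits within 60 kb of the starts of RUNX1 (long form), ERG and ETS2; the x axis is the distance from the start in kb (positive is downstream) and each line is 1 peak, its length the fold over input (up) or over H3 (down). RUNX1 has a summit 1.23 kb upstream, whereas the nearest input-list summits are 17.1 kb from the ERG start and 18.1 kb from the ETS2 start.

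Within the body of RUNX1, HMGA1 peaks were spread over the whole long form. There were 159 peaks over input and 142 over H3, or 132.8 per Mb (95% Poisson interval 113.0 to 155.2) and 118.6 per Mb (99.9 to 139.8). The input-list peaks covered 5.11% of the gene. Folds over input ran from 2.22 to 14.5 with a median of 4.44 (quartiles 3.62 and 5.80), and folds over H3 from 2.50 to 14.9 with a median of 4.98 (quartiles 4.11 and 6.50). A fold of at least 6 was reached by 38 input-list peaks (23.9%, 95% Wilson interval 17.9 to 31.1), against 23.1% of the whole input list, and by 43 H3-list peaks (30.3%, 23.3 to 38.3), against 31.3% of the whole H3 list. The shares of high-fold peaks in RUNX1 were thus near those of the lists as a whole.

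The long form was divided into 4 equal windows of 299.2 kb, counted from the 3′ end. From 3′ to 5′ they held 29, 48, 50 and 32 input-list peaks and 26, 46, 46 and 24 H3-list peaks. The inner windows, from 36459336 to 37057809, had 160.4 and 167.1 peaks per Mb over input, and the outer ones 96.9 and 106.9. The interval was 64.9 to 139.2 per Mb at the 3′ end and 124.0 to 220.3 in the fullest window. Each of these densities lay outside the interval of the other, although the intervals overlapped. These were the lowest and highest of the 4 windows, and the division was made after the values were seen. The intervals therefore cannot decide whether the windows differ. Both lists had more peaks in the inner windows, but they share the HMGA1 reads. Median folds over input were 4.45, 4.51, 4.30 and 4.54 and stood close together. The window at the 3′ end spans 36160098 to 36459335, and its median fold over H3 was 5.39, against 4.71, 5.01 and 4.77 in the others.

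The most crowded 100 kb of the locus over input lay inside RUNX1. From 36700001 to 36800000 there were 26 input-list peaks and 24 H3-list peaks, against medians of 11 and 9 over the 52 bins of the locus, and peaks covered 10.0% of this bin over input. The summit at 36783179, within this bin, had the highest fold of any H3-list peak of the locus. It carried 90 HMGA1 reads against 5.66 input reads (13.7-fold) and 3.81 H3 reads (14.9-fold). In the same bin, the summit at 36713451 had 65 reads and a fold of 9.65 over input and 10.3 over H3. The widest peak of the locus lay close by, from 36827232 to 36829277 (2046 bp), with a modest summit of 46 reads and a fold of 7.76 over input and 7.52 over H3.

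Other tall peaks marked the remaining windows of RUNX1. Next by fold over input after the 2 summits above was 37155117, with 65 reads and a fold of 11.2 over input and 9.87 over H3. In the window at the 3′ end, the highest fold over input was 9.41 at 36239546 (67 reads, 9.62 over H3). The highest over H3 in that window was 10.5 at 36302423, where 63 reads stood against 3.81 H3 reads but 8.01 input reads, which gave 7.11 over input. In the next window the summit at 36613487 showed the same order, with 80 reads and a fold of 13.2 over H3 but 8.99 over input. The longest stretch of RUNX1 without a summit was 53.3 kb over input, from 36166455 to 36219744, and 80.9 kb over H3, from 37052772 to 37133679. The latter was the longest of the whole locus over H3.

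The ERG body held 35 input-list peaks and 31 H3-list peaks, or 118.8 per Mb (82.8 to 165.3) and 105.3 per Mb (71.5 to 149.4). These densities lay within the intervals of RUNX1. A single tall peak stood out, from 39779188 to 39780014 in the 3′ part of the gene, 254.0 kb from the start. Its summit had 75 HMGA1 reads against 5.07 input reads (12.5-fold) and 3.50 H3 reads (13.3-fold). The next by fold over input were 7.31 at 39927356 (40 reads) and 6.68 at 39744324 (43 reads), with 6.90 and 7.26 over H3. The median fold was 4.01 over input and 4.41 over H3, and 4 of 35 input-list peaks reached a fold of 6 (11.4%, interval 4.54 to 26.0). That interval holds the 23.1% of the whole list, and so does the interval of the H3 list, where 5 of 31 did (16.1%, 7.09 to 32.6, against 31.3%).

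The ERG body also held a long stretch without summits. No summit lay between 39789737 and 39845391 over input (55.7 kb), the longest such stretch of the gene and the 5th longest of the locus, and the same stretch was empty over H3. The widest input-list peak of ERG, from 39885944 to 39887033 (1090 bp), had only 28 reads and a fold of 4.75. The widest H3-list peak ran from 39742947 to 39743863 (917 bp) with 29 reads and a fold of 4.76.

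**Figure D2:**
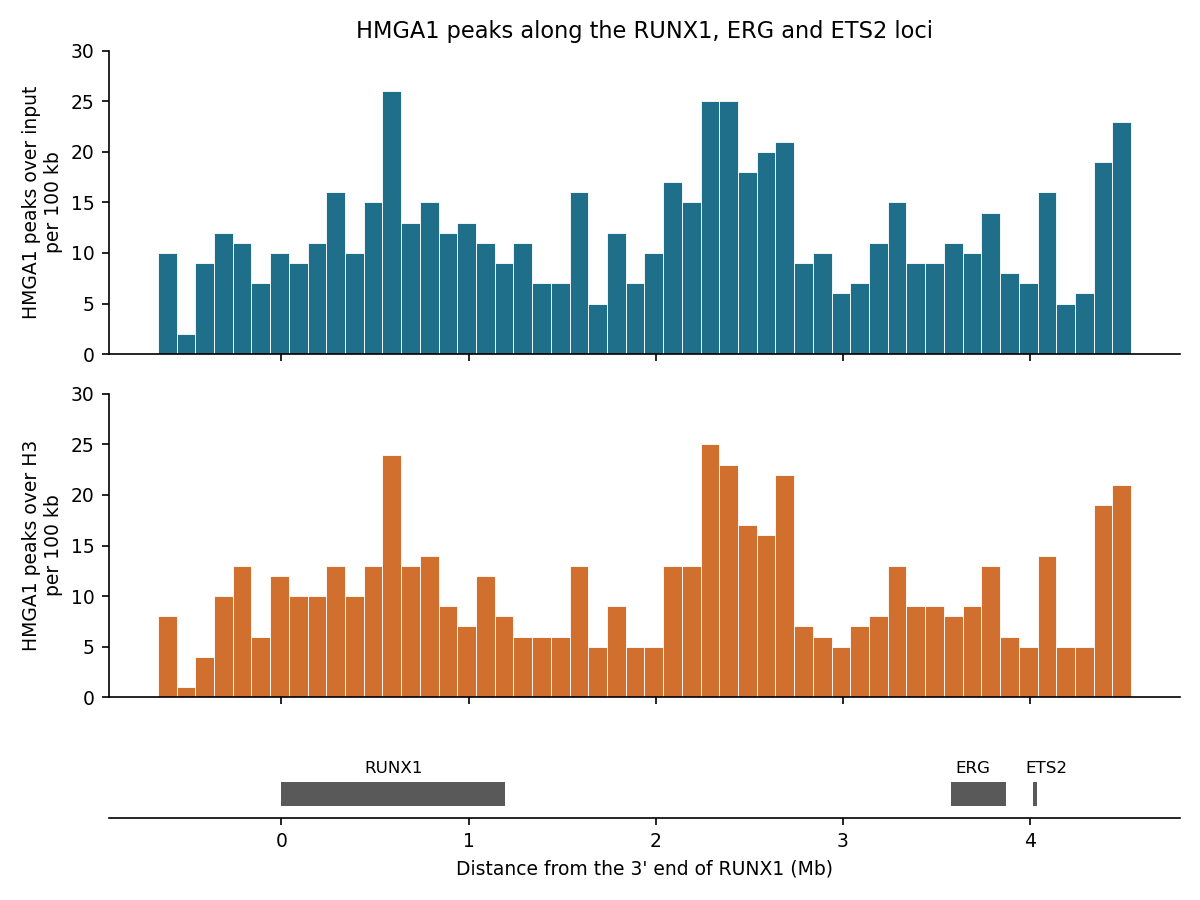
HMGA1 peaks per 100 kb along the locus over input (top) and over H3 (middle), with the bodies of RUNX1, ERG and ETS2 drawn to scale below; the x axis is the distance from the 3′ end of RUNX1 in Mb. Counts run from 2 to 26 over input and from 1 to 25 over H3, with crowded bins inside RUNX1, midway between RUNX1 and ERG, and at the upper end.

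Between RUNX1 and ERG, a stretch of 2.38 Mb, there were 297 input-list peaks and 252 H3-list peaks (124.7 and 105.8 per Mb). These densities lay within the intervals of the RUNX1 body. Peaks gathered from 38400001 to 38900000, where the 5 bins held 25, 25, 18, 20 and 21 input-list peaks. These bins were picked from the 52 of the locus after their values were seen. In the first of them, 11 of 25 peaks had a fold of at least 6 over input, against 23.1% of the whole list. Over H3 14 of 25 did, against 31.3%. The median fold in this bin was 5.42 over input and 6.40 over H3, and peaks covered 10.4% of it over input. The bin from 37800001 to 37900000, by contrast, held 5 input-list peaks, and a stretch of 67.5 kb from 37836062 to 37903576 had no summit over input.

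The highest fold over input of the whole locus was found in this intergenic stretch. The peak from 39482206 to 39483409 (1204 bp), 551.2 kb downstream of the ERG start and beyond the 3′ end of the gene, had 71 HMGA1 reads. The input level there, 3.78 reads, was the lowest at any input-list peak of the locus. It was 1.36 times the input floor, and the H3 level, 3.25 reads, was 1.49 times the H3 floor. The fold of this peak was 15.1 over input and 13.4 over H3, and it ranked 169th by fold in the whole input list. The next by fold over input were at 38681589 (80 reads, 12.8 over input and 9.13 over H3) and 38558251 (87 reads, 12.6 over input and 13.9 over H3). The latter had the highest fold over H3 between RUNX1 and ERG.

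The 143.5 kb between ERG and ETS2 held 10 input-list peaks and 8 H3-list peaks, the fewest per Mb of the intergenic stretches (69.7, interval 33.4 to 128.1, and 55.7, interval 24.1 to 109.8). Its leading peak at 40112684 had 50 reads and a fold of 8.76 over input and 8.61 over H3. It was followed over input by 40065991 (38 reads, 5.40 over input and 6.39 over H3) and 40129521 (45 reads, 5.11 and 7.12). These densities lay below the intervals of the RUNX1 body (113.0 to 155.2 over input and 99.9 to 139.8 over H3), although the intervals overlapped.

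The flanks of the genes had 89.4 (below) and 139.1 (above) peaks per Mb over input, with intervals that met. Below the 3′ end of RUNX1, 660.1 kb held 59 input-list and 52 H3-list peaks (intervals 68.0 to 115.3 per Mb over input and, around 78.8 per Mb, 58.8 to 103.3 over H3). Above ETS2, 503.1 kb held 70 and 65 (108.5 to 175.8 per Mb over input and, around 129.2 per Mb, 99.7 to 164.7 over H3). The tallest pileup of the locus was in the lower flank, at 36091010, where 96 HMGA1 reads gave a fold of 12.7 over input and 10.9 over H3. By fold over input it led the lower flank, followed by 35842749 (81 reads, 11.5 and 10.4) and 35565563 (60 reads, 9.91 and 6.89). In the upper flank the leading summits were 40396676 (71 reads, 11.1 over input and 10.997 over H3), 40260080 (62 reads, 10.1 and 10.7) and 40530160 (71 reads, 10.1 and 9.48). The longest stretch without a summit over input also lay above ETS2, with 70.1 kb from 40424422 to 40494555.

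**Figure D3:**
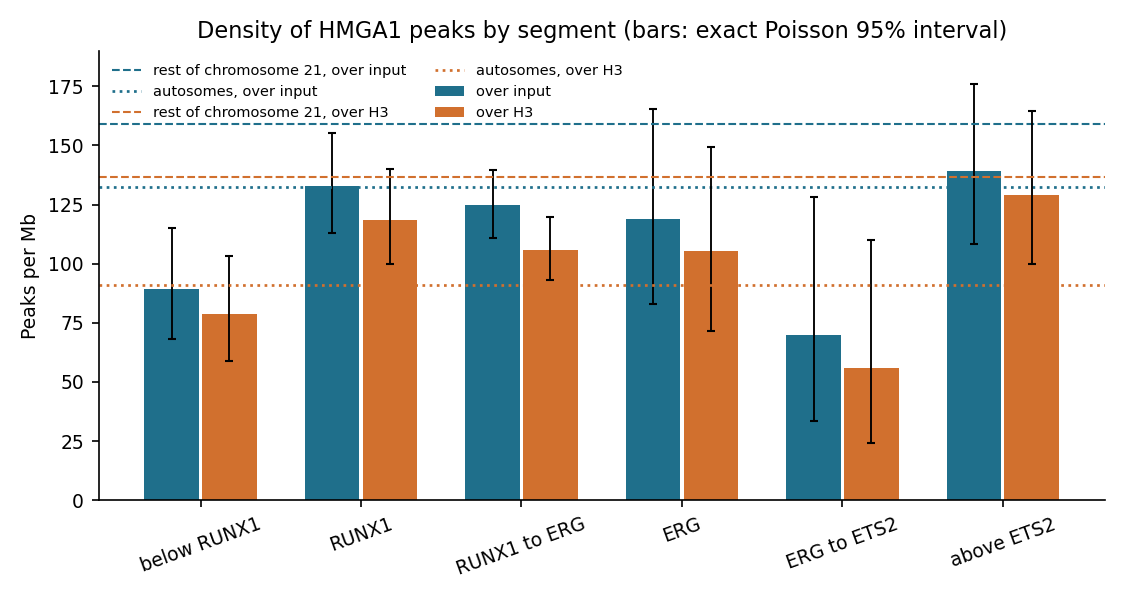
HMGA1 peaks per Mb in 6 segments of the locus over input and over H3, with exact Poisson 95% intervals as error bars; ETS2, with 2 and 0 peaks, is left out. Dashed lines give the rest of chromosome 21 (159.1 over input and 136.6 over H3) and dotted lines the autosomes without the locus (132.4 and 90.9). The lengths behind these lines include peak-free stretches.

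Set against its surroundings, the locus had fewer HMGA1 peaks than the rest of chromosome 21. Its density was 121.5 per Mb over input (112.2 to 131.4) and 105.8 over H3 (97.1 to 115.0), against 159.1 and 136.6 in the rest of the chromosome. That length includes peak-free stretches of at least 1 Mb, which the locus lacks. Without them the rest of the chromosome had 225.2 and 193.4. The autosomes without the locus had 132.4 and 90.9 with such stretches, and 141.7 and 97.2 without. With them counted, the density of the locus was 0.918 times that of the autosomes over input and 1.16 times over H3. Among 1 Mb windows of chromosome 21 that had peaks, the 4 lying wholly in the locus held 102 to 167 input-list peaks, whereas the 32 outside it held from 18 to 481 with a median of 187. Over H3 the 4 windows held 81 to 146 peaks, against 14 to 442 with a median of 145. The windows of the locus thus fell within the range of the chromosome, towards its lower part. The fullest stretch, from 20000001 to 26000000, held 361 to 481 input-list peaks per window. Nearest the locus, the windows from 33000001 to 35000000 held 93 and 145, and those from 41000001 to 43000000 held 119 and 80. Over H3 these windows held 74 and 125, and 95 and 63. In both lists their counts overlapped those of the 4 windows in the locus.

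Control levels at the peaks of the locus were higher than on most of the genome. The median input level was 2.09 times its genome-wide floor and the median H3 level 1.90 times its floor, with none of the 632 or 550 peaks at the floor. On the autosomes without the locus the medians were 1.14 and 1.05, with 39.0% and 44.3% of peaks at the floor, and in the rest of chromosome 21 they were 1.76 and 1.62. Bins of 100 kb varied little along the locus, from 1.63 to 2.30 times the floor over input and from 1.72 to 2.39 over H3. The lowest HMGA1 pileup called in the locus was 14 reads over input and 15 over H3, against 8 and 11 in the whole lists. More copies of the region and other sources of control reads cannot be told apart from these files.

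Counted by tall peaks, the comparison with the autosomes turned round over input. Peaks with at least 25 HMGA1 reads numbered 88.8 per Mb in the locus, 92.5 in the rest of chromosome 21 and 37.8 on the autosomes over input, and 85.0, 90.5 and 37.6 over H3. The median pileup was 30 reads in the locus against 19 on the autosomes over input, and 32 against 23 over H3. The control levels given above were also higher in the locus. Whether the difference in pileup goes with the control level was not tested. The median folds were 4.41 in the locus, 4.59 in the rest of chromosome 21 and 4.50 on the autosomes over input. Over H3 they were 4.77, 5.17 and 5.25. A fold of at least 6 was reached by 23.7% of the input-list peaks (20.6 to 27.2), against 23.1% of the whole list, and by 28.4% of the H3-list peaks (24.8 to 32.3), against 31.3%. In the rest of chromosome 21 the shares were 28.3% (27.3 to 29.4) and 35.1% (33.9 to 36.3), both above the intervals of the locus.

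Where only peaks with a control level between the quartiles of the locus were taken (1.90 to 2.35 times the floor over input), the median fold was 4.52 in the locus, 4.42 in the rest of chromosome 21 and 3.79 on the autosomes. Over H3 (1.81 to 2.28 times) these were 4.76, 4.81 and 4.29. The median pileups of such peaks were 30, 29 and 24 reads over input and 30, 31 and 27 over H3. In the same order, 26.3%, 23.6% and 13.5% of such peaks reached a fold of at least 6 over input, and 28.7%, 29.3% and 19.4% over H3. On the autosomes such peaks are picked from among mostly lower levels, whereas in the locus they are the usual ones, so the values describe unlike selections.

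**Figure D4:**
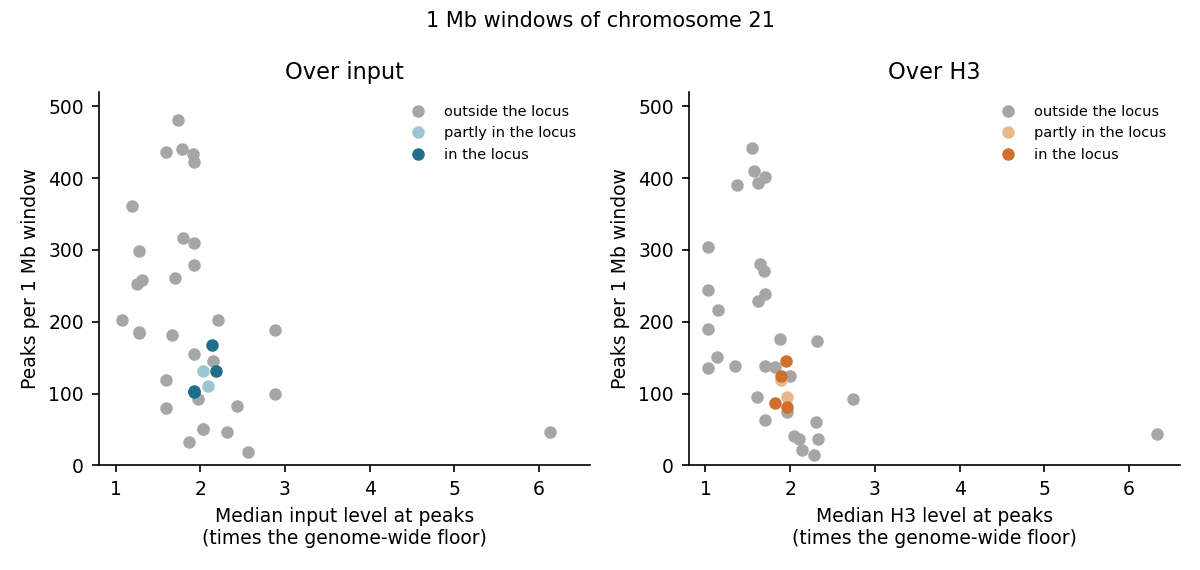
Peaks per 1 Mb window of chromosome 21 (y axis) against the median control level at those peaks in multiples of the genome-wide floor (x axis), over input (left) and over H3 (right). The 4 windows wholly in the locus lie between 1.92 and 2.18 times the floor over input and hold 102 to 167 peaks.

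The lists shared most sites of the locus. Of the input-list peaks 519 of 632 overlapped an H3-list peak by at least 1 bp (82.1%, interval 78.9 to 84.9), against 65.8% of the whole input list. The rest of chromosome 21 had the same share, 82.1%. The 113 without a counterpart were low, with a median of 21 reads and a highest fold of 5.51, whereas those with one had a median of 32 reads. By gene, 135 of 159 in RUNX1 and 29 of 35 in ERG had an H3-list counterpart, and none of 2 in ETS2. The reverse share was 95.3% (524 of 550, interval 93.2 to 96.8), against 98.3% of the whole H3 list. The 26 H3-list peaks without an input-list counterpart had a median of 22.5 reads and reached a fold of 4.64 at most. At pileups from 16 to 49 reads the locus shared fewer of its peaks than the whole list. With 16 to 20 reads 32.3% of 65 input-list peaks were shared (22.2 to 44.4), against 66.6% of the whole list, with 21 to 24 reads 60.4% of 101 (50.6 to 69.4), against 93.8%, and with 25 to 49 reads 93.2% of 381 (90.2 to 95.3), against 98.4%. All 81 peaks with 50 reads or more were shared, and below 16 reads the locus had only 4 peaks. The part of the higher control level of the locus in these shares was not tested.

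At 220 sites of the locus the lists had their summit at an identical base, and the recovered HMGA1 pileup was equal at all 220. Relative to its floor, H3 was lower than input, with a median ratio of 0.903, against 0.994 at the 114050 such sites of all chromosomes. On the autosomes 39.0% of input-list and 44.3% of H3-list peaks lay at the floor, and none in the locus. Where both controls lie at the floor, the ratio cannot depart from equality, which also affects the shares below. Over all peaks of the rest of chromosome 21, median levels were 1.62 times the floor for H3 and 1.76 for input. A lower H3 is thus not shown to be particular to the locus. In RUNX1 the ratio was 0.871 over 67 sites and in ERG 0.778 over 9. Input was over 1.5 times H3 at 36 of the 220 (16.4%, against 11.8% of all such sites) and H3 exceeded input by as much at 7 (3.18%, against 4.11%). Of these, 11 of the first kind and none of the second lay in RUNX1. The 11 were 16.4% of its 67 sites, the share of the locus as a whole. In ERG 4 of the 9 sites were of the first kind and 1 of the second. The widest gap was at 36298411 in RUNX1, a site chosen after its values were seen. There 33 HMGA1 reads stood against 11.6 input reads and 3.72 H3 reads, for folds of 2.71 and 5.71. At the opposite end, 37601100 between RUNX1 and ERG had 43 HMGA1 reads against 4.45 input reads and 7 H3 reads, for folds of 8.08 and 4.35.

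**Figure D5:**
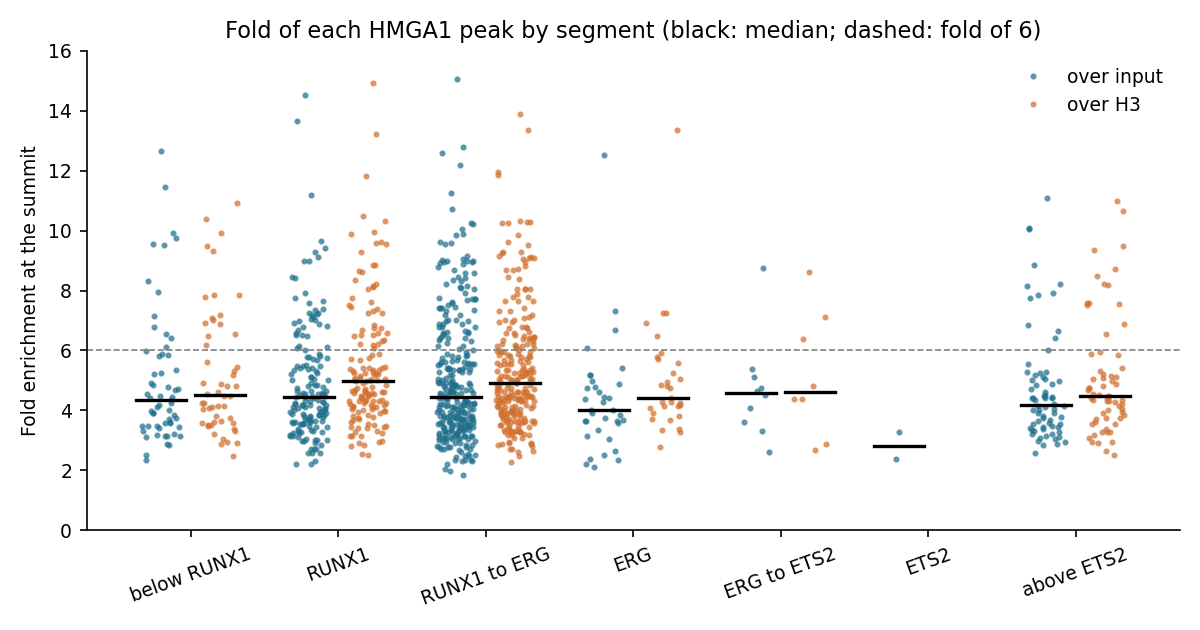
Fold enrichment at the summit of every HMGA1 peak of the locus by segment, over input and over H3; each point is 1 peak, black bars are medians and the dashed line marks a fold of 6. Medians run from 4.01 (ERG) to 4.58 (ERG to ETS2) over input, apart from the 2 peaks of ETS2, and the highest folds lie in RUNX1 and between RUNX1 and ERG.

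Most peaks of the locus were narrow. The median width was 300.0 bp over input and 296.5 bp over H3, and 9 input-list and 8 H3-list peaks were at least 1000 bp wide (1.42% and 1.45%, against 1.999% and 1.42% of the whole lists). Median widths were 311 bp in RUNX1 and 291 bp in ERG over input, and the 2 peaks of ETS2 were 200 and 199 bp.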

How the data were processed

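Per the submitters' processing notes, MACS2 called the peaks on hg19. Its version, the aligner and any read filtering are not given in the sources used. Each deposited list gives a peak's interval and summit, a fold ratio of HMGA1 over the control, −log10 p- and q-values, and a score, which the authors' file follows as 10 times the −log10 q-value with decimals dropped. The peak names carry a prefix other than HMGA1; the ChIP was taken as the HMGA1 library from the list names. The lists hold no read counts, so total depth is unknown.

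HMGA1 pileups and control levels were recovered from fold and p-value, taking the fold as pileup plus 1 over control plus 1. Whole pileups were found for all 385953 input-list and 263033 H3-list peaks within 0.001 of the −log10 p-value, with HMGA1 multiplied by 0.787 in the H3 list, a factor fitted on 400 peaks. On simulated data 100% of pileups were recovered, both unscaled and with a scaling factor that was given and not fitted. The fitting of the factor was therefore not tested by simulation. The simulated pileups and control levels did not reach the highest values of the lists. The control floor was 2.78 reads (input) and 2.19 (H3); lower control levels do not show. Peaks were placed by summit.

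Named peaks were the 3 highest folds over input and the highest over H3 per segment, all within 5 kb of a start or in ETS2, and the widest and the longest summit-free stretch per gene body. Members and lists were chosen with earlier results of these data known, and the division of RUNX1 into windows, with the highest fold of each, after its values were seen. No genome or annotation of hg19 was used, so peak sequences and the planned other genes (17 of the interval and 8 of the RUNX and ETS families and partners) were not analysed here. Alternatives were stricter q-values and folds, the 20000 highest-q peaks, other placements, overlaps and distances, and leaving out peak-free stretches. Coordinates are 1-based. Python 3.11.15 ran with scipy 1.17.1, pandas 2.3.3 and numpy 2.4.6, and figures were drawn with matplotlib 3.10.9.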

Additional observations from a re-analysis of the deposited data

How the results depend on the processing

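There was 1 library per antibody, so no replicate could be left out. No paired analysis was possible because each group holds 1 sample and the values come from no test. Peaks per Mb of the locus were 73.1 over input with a fold of at least 4 (121.5 in all), and 19.4 over input and 18.7 over H3 with the 20000 highest-q peaks. The median fold over input was 4.68 at −log10 q-values from 5 and 4.98 with at least 25 reads (4.41 in all), and over H3 5.15 and 5.22 (4.77 in all). H3-list peaks overlapped an input-list peak in 91.5% of cases with 50% of both peaks shared. The share was 79.6% when both lists were cut to a fold of at least 4, where an input-list partner below that fold no longer counted. A fold of at least 8 was reached by 9.97% of the peaks over input and 12.0% over H3. Relative to the rest of chromosome 21 (0.764 over input and 0.774 over H3), the density was 0.54 and 0.547 when peak-free stretches of 1 Mb or more were left out, 0.892 and 0.849 with the 20000 highest-q peaks, and 0.961 and 0.94 with at least 25 reads. Relative to the autosomes over input (0.918), it turned from below to above, with 2.81 for the 20000 highest-q peaks and 2.35 with at least 25 reads. Over H3 (1.16) it was 2.697 and 2.26, and 1.02 with a fold of at least 4. Control levels in the locus are raised, which the report gives beside these densities; their part in the change was not tested. Counts near the starts of RUNX1, ERG and ETS2 were the same within 2 kb and 10 kb. The restriction to at least 25 reads and that to matched control levels were chosen after the data were seen. The lowest HMGA1 pileups called in the locus were 14 (input) and 15 (H3) reads, which are observed values and not detection limits.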
